A study of Mus musculus with 6 samples.

Results

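Of the 32285 genes in the count matrices, 9 were followed through every class of nucleus in photothrombotic (PT) cortical lesions of mice: Smad2, Smad3, Smad4, Smad7, Ski, Skil, Pmepa1, Smurf2 and Tgif1. These genes were chosen by name, as the Smads that carry the TGFβ signal (Smad2, Smad3 and Smad4) and 6 inhibitors of that signal, all detected in the files. The choice was made with earlier results of these data known, so counts of these genes beside shares of all genes are a description. PT injury makes a small ischaemic lesion in the cortex by light-activated clotting. The study's methods say that only the lesions were dissected for single-nucleus RNA-seq (snRNA-seq), while its results also name residual brain parenchyma with them. The 6 libraries were wild-type mice whose labels name no treatment (Ctrl), wild-type mice given ADWA11, and Col1a2(creER); Tgfbr2(flox) mice (Tgfbr2-cKO), each at 7 and 21 days post-injury (dpi). ADWA11 is an antibody that blocks integrin αvβ8, and per the study's methods it was injected from the day of injury and weekly thereafter. Tgfbr2-cKO mice carry a tamoxifen-inducible Cre driven by Col1a2, a collagen gene of fibroblasts, and lose the type 2 TGFβ receptor where Cre is active, so other cells of these mice keep their own receptor unless they too express Col1a2. The mice were adults on a C57BL/6 background per the study's methods, and the labels give no age. Those methods say in general that controls of the knockout strains were given tamoxifen when relevant and that ADWA11 was set against an isotype antibody. They do not say what the Ctrl mice of these libraries received. Each library pooled 1 male and 1 female mouse, and each group was 1 library without replicates, so no p-value is given.

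TGFβ is secreted in a latent form that αv integrins such as αvβ8 can release, and the free ligand then binds a pair of receptors, one of which is encoded by Tgfbr2. The receptors phosphorylate SMAD2 and SMAD3, which join SMAD4 and enter the nucleus to switch genes on or off. Several of the genes induced in this way encode brakes on the same signal, and in the brain the pathway is best known for sustaining microglia and for driving scar-forming fibroblasts. Among the brakes, SMAD7 is an inhibitory SMAD that blocks the receptors, and SMURF2 is a ubiquitin ligase that works with SMAD7 to degrade them. PMEPA1 is a membrane protein that keeps SMAD2 and SMAD3 from the receptors. SKI and its relative SKIL (also called SnoN) are nuclear repressors that bind SMAD complexes, and TGIF1 is a homeobox repressor that recruits deacetylases to SMAD2.

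The reference table of RefSeq promoters (GRCm38.p6, from 250 bases before to 50 after a transcription start) was searched for 6 of the genes and held a window for 4, Ski, Smad3, Smurf2 and Tgif1, the last with 5 windows. Each whole window was searched on both strands for GTCTAGAC (the palindromic SMAD box), CAGACA (an extended SMAD element), GGCGCC (a GC-rich SMAD site, also palindromic) and TGACTCA (an AP-1 element). Among all 32851 promoter windows these letters occurred in 0.213%, 21.0%, 11.9% and 5.2%. Neither GTCTAGAC nor TGACTCA was found in any window of the 4 genes, GGCGCC was found once at Ski and 2 times at Smurf2, and CAGACA was found once at Smurf2, after the start, and in 2 of the 5 Tgif1 windows. Of each window only the bases before both the RefSeq start and the GENCODE gene are shown, which leaves 193 for Ski, whose RefSeq start lies inside its GENCODE gene. They are given for Ski and Smad3, which fell in myeloid nuclei under ADWA11, and for Smurf2, which did not pass the fold threshold there, each 5′ to 3′ on the gene's strand with GGCGCC in capitals. A match is a run of letters in these windows and was not tested as a binding site.
Ski, chr4:155222593-155222785, minus strand, 193 bases: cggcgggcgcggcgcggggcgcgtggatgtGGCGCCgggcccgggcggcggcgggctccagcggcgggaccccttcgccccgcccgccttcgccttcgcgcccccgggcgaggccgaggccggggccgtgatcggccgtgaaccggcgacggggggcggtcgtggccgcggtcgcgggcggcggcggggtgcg
Smad3, chr9:63757995-63758244, minus strand, 250 bases: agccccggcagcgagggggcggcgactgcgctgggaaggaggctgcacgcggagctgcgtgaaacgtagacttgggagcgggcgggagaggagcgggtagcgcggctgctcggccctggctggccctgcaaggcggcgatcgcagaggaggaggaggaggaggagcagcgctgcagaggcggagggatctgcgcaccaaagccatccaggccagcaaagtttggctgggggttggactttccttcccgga
Smurf2, chr11:106920716-106920965, minus strand, 250 bases: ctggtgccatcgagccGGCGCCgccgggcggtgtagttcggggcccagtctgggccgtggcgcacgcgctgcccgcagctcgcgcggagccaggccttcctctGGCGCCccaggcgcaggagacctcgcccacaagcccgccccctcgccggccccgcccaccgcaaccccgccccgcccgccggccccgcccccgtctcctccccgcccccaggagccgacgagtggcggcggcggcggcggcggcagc

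In the GRCm38 annotation (GENCODE M21) Smad3 (ENSMUSG00000032402) lies on the minus strand at chr9:63646767-63757994, Ski (ENSMUSG00000029050) on the minus strand at chr4:155154075-155222592, and Skil (ENSMUSG00000027660) on the plus strand at chr3:31095058-31122577. Pmepa1 (ENSMUSG00000038400) lies on the minus strand at chr2:173224458-173276533, Smurf2 (ENSMUSG00000018363) on the minus strand at chr11:106820066-106920715, and Tgif1 (ENSMUSG00000047407) on the minus strand at chr17:70844205-70853546. Smad2 (ENSMUSG00000024563), Smad4 (ENSMUSG00000024515) and Smad7 (ENSMUSG00000025880) are on chromosome 18, and no sequence of theirs is shown. None of the 9 overlaps another annotated gene on either strand.

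The libraries held 7205 to 14246 barcodes and 64798965 to 140310354 unique molecular identifiers (UMIs), with a median of 4601.5 to 8222.5 UMIs per barcode, and 61917 of 67360 barcodes were kept. Each library shared 140 to 217 barcode sequences with another library, 1.497% to 1.943% of its barcodes. Clusters were named from fixed markers into 10 classes with 13308 fibroblast, 22974 myeloid, 2296 T cell, 1502 neutrophil, 3303 astrocyte, 2364 oligodendrocyte precursor (OPC), 1847 oligodendrocyte, 7062 neuron, 1715 endothelial and 511 mural nuclei, and 4 clusters stayed unnamed. Each name stands for a likeness to its markers (fibroblast for fibroblast-like, and so on), and at least 4 markers of the list were raised in each cluster named. The 2 Tgfbr2-cKO libraries stood apart in make-up, with 5915 neurons at 7 dpi and 770 at 21 dpi against 11 to 201 in the other libraries, and with 399 and 656 fibroblasts against 2318 to 5067. A level below is given in CPM, the summed UMIs of a gene scaled to a fixed total of non-mitochondrial UMIs in each class of a library, and only where the class had at least 50 nuclei, and a ratio is the log2 of a treated or deleted level over the Ctrl level at the same time. Ranges in parentheses are exact 95% intervals for counting error only and say nothing of the spread between mice. A gene is said to have fallen or risen where its level differed by at least 1.5 fold and its ratio's interval did not include 1-fold. The share of all measured genes that did so in the same class and comparison is given with the counts for a class. Counts over sub-clusters have no such share and do not set these genes apart from others. The ADWA11 and Tgfbr2-cKO comparisons of a time point share 1 Ctrl library, so their values stand side by side and their likeness was not measured.

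The deleted gene itself was only modestly lower in the fibroblast class. Tgfbr2 stood at 334 CPM in Ctrl, 251 in Tgfbr2-cKO and 259 in ADWA11 fibroblasts at 7 dpi, and at 247, 195 and 204 at 21 dpi. The Tgfbr2-cKO ratios were -0.41 (-0.54 to -0.28) and -0.34 (-0.44 to -0.24), next to -0.37 and -0.28 under ADWA11, where the gene is intact, so this level did not set the deleted libraries apart. The study lists flox alleles of exon 2 and of exon 4, and 3′ counts from outside a deleted exon check nothing about the deletion. In myeloid nuclei, where the receptor is meant to be intact in all groups, Tgfbr2 stood between 363 and 478 CPM in the 6 libraries. In OPCs, also outside the aim of Col1a2-driven Cre, it was 82.0 CPM at 7 dpi in Ctrl, and it fell to 22.8 in Tgfbr2-cKO and to 41.9 with ADWA11.

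Each of the 9 genes had its own order of classes, given here for Ctrl at 7 dpi. Pmepa1 was highest in fibroblasts at 716 (704 to 729) CPM, then in myeloid nuclei at 319.6 (313 to 327), and from OPCs at 214 (199 to 230.1) down to neurons at 88.7 (71.0 to 109) each class overlapped its neighbour in the order. Ski was highest in myeloid nuclei at 509.6 (501 to 519) CPM and the astrocyte class at 391 (357 to 427), and lowest in oligodendrocytes at 111 (77.3 to 154). Skil led in the class named neutrophil at 267 (237 to 299) CPM, ahead of myeloid nuclei at 171 (166 to 177) and T cells at 171 (138 to 208), which overlapped. The first step of each of these orders was separated by its intervals, but neutrophil markers summed to 485 CPM in the nuclei named neutrophil and to 385 in myeloid nuclei of this library, so that name is uncertain at 7 dpi. Smad7 was far higher in oligodendrocytes, at 504 (429 to 589) CPM, than in T cells at 169 (137 to 206), and was lowest in neurons at 36.7 (25.7 to 50.8). Smurf2 ranged from 406 (378 to 436) CPM in endothelial nuclei to 122 (101 to 146) in neurons, with fibroblasts, neutrophils, T cells and myeloid nuclei overlapping in between. Tgif1 was sparse everywhere, at most 44.2 (41.7 to 46.9) CPM in myeloid nuclei, and it had 0 UMIs in the neurons and oligodendrocytes of this library, which by a limit of 3 UMIs allows a level of up to 3.06 and 9.51 CPM. Of the signalling Smads, Smad3 ranged most widely, from 251 (211 to 296) CPM in T cells to 34.1 (24.7 to 45.9) in the astrocyte class. In that Ctrl library the nuclei named astrocyte held OPC markers of 6126 CPM in sum and astrocyte markers of 2923. Their place in an order may thus not be that of astrocytes alone. Over all libraries 6 astrocyte markers and 1 OPC marker were raised in this cluster, and the genes behind the sums were not separated. Smad2 ran from 145 (140.1 to 149.7) CPM in myeloid nuclei to 44.9 (32.6 to 60.2) in neurons, and Smad4 from 221 (194 to 251) in neutrophils to 59.1 (44.9 to 76.4) in neurons. At 21 dpi fibroblasts still led for Pmepa1, myeloid nuclei for Ski, neutrophils for Skil and oligodendrocytes for Smad7, whereas the 2 highest classes of Smad2, Smad3, Smad4, Smurf2 and Tgif1 overlapped.

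**Figure D1:**
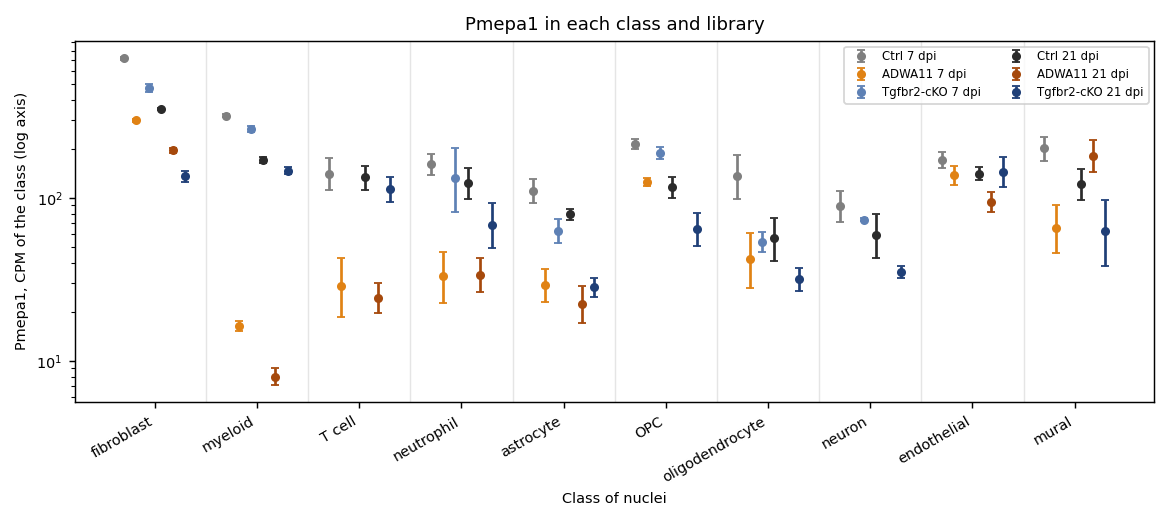
Pmepa1 level in CPM on a log axis in each class of nuclei, with 1 point per library and its exact 95% counting interval. In myeloid nuclei the ADWA11 libraries sit at 16.4 and 8.02 CPM, and the other 4 lie between 147 and 319.6.

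Under ADWA11 most of the feedback genes fell in myeloid nuclei as a class, which holds microglia and macrophages. Of the 6, 4 fell at 7 dpi and the same number at 21 dpi: Pmepa1, Smad7, Skil and Ski, against 9.98% and 16.1% of all measured genes. None of the 6 rose, next to 12.5% and 8.33% of all measured genes. Their median ratio was -1.31 at 7 dpi and -1.54 at 21 dpi, next to 0.04 and -0.07 over all measured genes. Pmepa1 stood at 319.6 CPM in Ctrl, 264 in Tgfbr2-cKO and 16.4 with ADWA11 at 7 dpi, and 171, 147 and 8.02 at 21 dpi. Both ADWA11 libraries lay far below the other 4, which is 19.5-fold lower than Ctrl at 7 dpi and 21.3-fold lower at 21 dpi, with log2 ratios of -4.28 (-4.40 to -4.17) and -4.41 (-4.60 to -4.23). The inhibitory Smad7 had 101 CPM in Ctrl, 155 in Tgfbr2-cKO and 27.6 with ADWA11 at 7 dpi, and 70.6, 73.2 and 8.33 at 21 dpi. Its ADWA11 ratios were -1.87 (-1.97 to -1.77) and -3.08 (-3.28 to -2.89) at the 2 times. Skil had 171 CPM in Ctrl, 223 in Tgfbr2-cKO and 58.9 with ADWA11 at 7 dpi, and 183, 149 and 47.0 at 21 dpi. Ski had 509.6 CPM in Ctrl, 496 in Tgfbr2-cKO and 243 with ADWA11 at 7 dpi, and 377, 377 and 173 at 21 dpi. For both repressors the ADWA11 libraries were the 2 lowest, with ratios of -1.54 (-1.61 to -1.47) and -1.96 (-2.06 to -1.87) for Skil and -1.07 (-1.11 to -1.03) and -1.12 (-1.18 to -1.07) for Ski. The ubiquitin ligase gene Smurf2 had ratios of -0.20 (-0.25 to -0.16) and -0.45 (-0.51 to -0.40), and Tgif1 of -0.26 (-0.38 to -0.15) and -0.34 (-0.45 to -0.23), all within 1.5 fold. TMM scaling of the libraries (edgeR) moved the median of all myeloid genes by 0.11 at 21 dpi under ADWA11, and the 4 genes fell under either scaling.

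The ADWA11 values held in the nuclei assigned to each mouse of the pool from sex-linked genes. Of the kept nuclei 1348 to 2919 per library had no such call, and wrong calls from stray RNA were not measured. Pmepa1 stood at 309 CPM in the female and 334 in the male Ctrl mouse at 7 dpi, and at 16.0 and 16.0 in the ADWA11 mice. At 21 dpi the Ctrl mice had 159 and 176 CPM and the ADWA11 mice 9.04 and 7.40. Both ADWA11 mice lay below both Ctrl mice at each time for Pmepa1, Smad7, Skil, Ski, Smurf2 and Smad3. Summed fibroblast markers in myeloid nuclei, all 7 of 7 with UMIs in each library, stood at 603 CPM in Ctrl, 45.3 in Tgfbr2-cKO and 320.0 with ADWA11 at 7 dpi and 935, 56.1 and 482 at 21 dpi. They were lowest in the Tgfbr2-cKO libraries, and the part of such RNA in the ADWA11 ratios was not tested. Summed mural markers moved with ADWA11, from 86.0 to 12.6 CPM at 7 dpi and from 59.1 to 12.6 at 21 dpi, as did endothelial markers, from 67.4 to 27.0 and from 92.4 to 31.1 (7 of 7 with UMIs for both lists). OPC markers (8 of 8) went from 161 to 82.2 CPM and from 80.1 to 19.5, and astrocyte markers (6 of 6) from 99.3 to 48.5 and from 149 to 52.5. Neutrophil markers (6 of 6) went from 385 to 176 CPM at 7 dpi and from 269 to 215 at 21 dpi. The part of these lists in the ratios was not tested.

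The myeloid class was made of different clusters in the 2 conditions, so the genes were also read within sub-clusters. At 7 dpi Ctrl held 1527 nuclei of sub-cluster 2 (microglia-like) and 72 of sub-cluster 3 (led by Hpgd), and ADWA11 held 32 and 2586. At 21 dpi sub-cluster 0, led by the MHC class II genes Ciita and H2-Eb1, held 278 Ctrl and 3732 ADWA11 nuclei. Pmepa1 was lower under ADWA11, with intervals apart, in each sub-cluster that had 50 nuclei in both libraries. In sub-cluster 1 (led by Dach1) it stood at 291 (280.2 to 302) CPM in Ctrl and 27.2 (23.0 to 32.0) under ADWA11 at 7 dpi, and at 221 (206 to 236) and 39.3 (25.2 to 58.5) at 21 dpi. In sub-cluster 6, led by cell-cycle genes, the 7 dpi levels were 375 (354 to 398) and 12.3 (10.0 to 14.9) CPM, and in sub-cluster 3 they were 133 (98.7 to 175) and 15.7 (13.9 to 17.6). Sub-cluster 5, border macrophage-like by Cd163 and F13a1, went from 77.4 (61.8 to 95.7) to 21.9 (17.6 to 26.8) CPM. In sub-cluster 0 at 21 dpi the levels were 41.8 (31.6 to 54.3) CPM in Ctrl and 7.32 (6.20 to 8.57) under ADWA11. Microglia-like nuclei were few under ADWA11, 71 at 7 dpi and 61 at 21 dpi against 1598 and 1197 in Ctrl, and in them Pmepa1 was 38.8 (23.3 to 60.5) and 14.2 (4.61 to 33.2) CPM against 372 (359.6 to 384) and 204 (192 to 215). The counts of sub-clusters that follow have no share of all genes beside them and are a description. Skil was past the threshold in 5 of 5 sub-clusters where it was measured at 7 dpi and in 5 of 6 at 21 dpi. The exception was sub-cluster 3, at -0.63 with an interval that included 1-fold. Ski, by contrast, was past it in 2 of 5 at 7 dpi and in 2 of 6 at 21 dpi. In the other sub-clusters it stayed within 1.5 fold. In sub-cluster 3 at 7 dpi Ski stood at 316 (262 to 379) CPM in Ctrl and 248 (241 to 255) with ADWA11, and in sub-cluster 0 at 21 dpi at 219 (194 to 245) and 169 (163 to 174). In sub-cluster 1 at 7 dpi it went from 484 (471 to 498) to 236 (223 to 249). The part of the make-up of the class in its Ski ratio was not tested. Smad7 was past the threshold in 3 of 5 at 7 dpi and 4 of 4 at 21 dpi. In sub-cluster 3 at 7 dpi Smad7 stood at 18.6 (7.48 to 38.3) CPM in Ctrl and 33.0 (30.5 to 35.8) under ADWA11. In sub-cluster 8, led by Mmp12, Smad7 had 230.3 (189 to 278) CPM in Ctrl, 396 (332 to 469) in Tgfbr2-cKO and 73.7 (60.2 to 89.4) with ADWA11 at 7 dpi.

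In Tgfbr2-cKO lesions most feedback genes of the myeloid class as a whole stood within 1.5 fold of Ctrl, while some moved within its sub-clusters. At 7 dpi none of the 6 fell, next to 6.42% of all measured genes, and only Smad7 rose, next to 15.6%, while at 21 dpi only Tgif1 fell, next to 9.76%, and none rose, next to 9.33%. Their median ratio was 0.07 at 7 dpi and -0.11 at 21 dpi, with 0.06 and 0.02 over all measured genes. Pmepa1 had ratios of -0.28 (-0.35 to -0.21) and -0.22 (-0.31 to -0.13), Ski of -0.04 (-0.09 to 0.01) and 0.00 (-0.06 to 0.05), Skil of 0.38 (0.30 to 0.46) and -0.30 (-0.39 to -0.22), and Smurf2 of -0.07 (-0.13 to -0.01) and 0.21 (0.15 to 0.27). Smad7 was 155 CPM against 101 at 7 dpi, a ratio of 0.62 (0.52 to 0.71) that came to 0.50 after TMM scaling, which shifted the median of all genes by -0.11, and so no longer passed the threshold. Tgif1, which had risen in Ctrl between the 2 times, was 75.9 CPM in Ctrl and 46.3 in Tgfbr2-cKO at 21 dpi, a ratio of -0.71 (-0.86 to -0.56). The 2 Tgfbr2-cKO mice of 21 dpi differed, with Pmepa1 at 95.2 CPM in the female and 191 in the male, on either side of the Ctrl mice. At 7 dpi Pmepa1 and Smurf2 fell in 1 of 5 sub-clusters each, Smad7 rose in 2 of 5 and Tgif1 in 1 of 5. No share of all genes is given for sub-clusters, so these counts and those of 21 dpi below are a description. In the microglia-like sub-cluster 4, with 71 Ctrl and 189 Tgfbr2-cKO nuclei at that time, Pmepa1 was 365 (305 to 434) CPM in Ctrl and 236 (196 to 282) in Tgfbr2-cKO, and Smad7 was 92.7 (63.8 to 130.2) and 201 (164 to 244). At 21 dpi Tgif1 fell in 4 of 5. Pmepa1 then fell in 2 of the 5 sub-clusters where it was measured, stayed within the threshold in 1 and rose in 2, and Skil fell in 2 of 5. In the Dach1-led sub-cluster 1 Pmepa1 was 91.2 (80.7 to 103) CPM in Tgfbr2-cKO against 221 (206 to 236) in Ctrl, and Skil was 101 (89.6 to 113) against 164 (151 to 177). In the microglia-like sub-cluster 4, with 1047 Tgfbr2-cKO and 907 Ctrl nuclei, Pmepa1 was 117 (109 to 126) CPM against 180.0 (168 to 193), and Skil was 150.4 (141 to 160.4) against 243 (229 to 258). In sub-cluster 5 Pmepa1 was 304 (255 to 359) CPM against 98.0 (77.1 to 123) in Ctrl, so the class ratio joins falls and rises. Summed neuron markers in myeloid nuclei, which lacked Slc17a6 in at least 1 library, were 257 and 80.5 CPM in the Tgfbr2-cKO libraries and 3.76 to 12.9 elsewhere. From Ctrl to Tgfbr2-cKO, astrocyte markers went from 99.3 to 208 CPM at 7 dpi and from 149 to 246 at 21 dpi. Oligodendrocyte markers went from 109 to 164 and from 114 to 235, and endothelial markers from 67.4 to 55.7 and from 92.4 to 39.2. The part of all these markers was not tested.

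**Figure D2:**
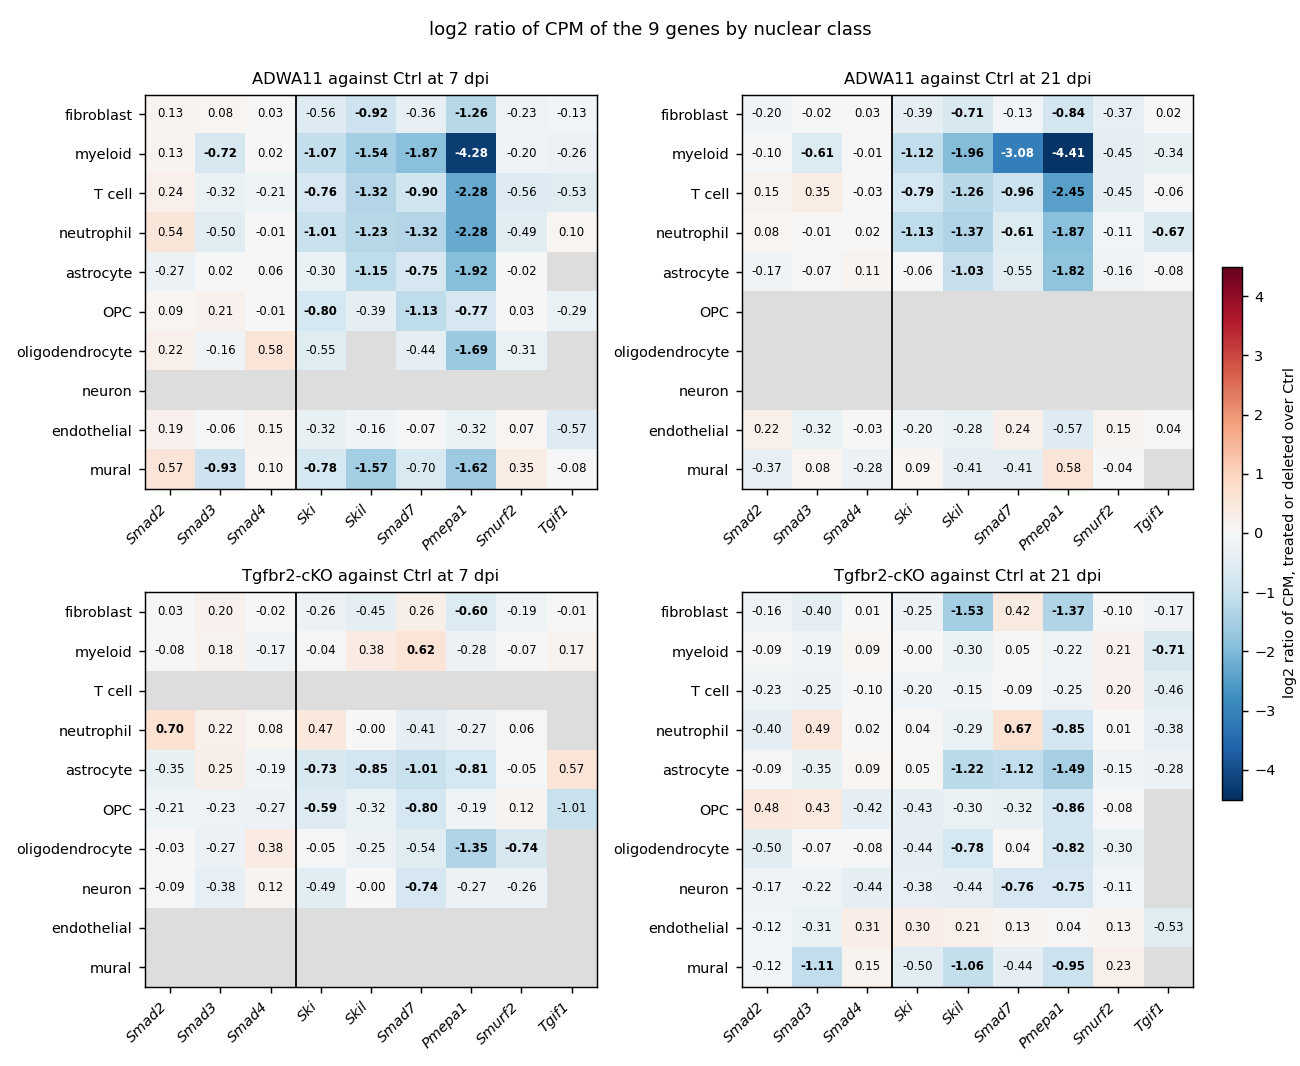
Log2 ratio of CPM over Ctrl for the 9 genes (columns, the 6 feedback genes right of the line) in each class of nuclei (rows), with 1 panel per comparison and grey cells where a class or gene was not measured. Under ADWA11 the myeloid row reaches -4.28 for Pmepa1 at 7 dpi and -4.41 at 21 dpi, and under Tgfbr2-cKO it is -0.28 and -0.22.

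In fibroblasts as a class Pmepa1 and Skil fell under ADWA11 at both times. These were 2 of 6 genes at 7 dpi and 2 of 6 at 21 dpi, next to 6.16% and 7.73% of all measured genes, and none rose, next to 12.2% and 9.09%. The median ratio of the 6 was -0.46 and -0.38, with 0.07 and 0.00 over all measured genes. Pmepa1 had 716 CPM in Ctrl, 472 in Tgfbr2-cKO and 299 with ADWA11 at 7 dpi, and 351, 136 and 196 at 21 dpi. Ctrl was the highest library at each time, with ADWA11 ratios of -1.26 (-1.30 to -1.22) and -0.84 (-0.90 to -0.79). Skil had 127 CPM in Ctrl, 93.5 in Tgfbr2-cKO and 67.1 with ADWA11 at 7 dpi, and 123, 42.6 and 75.3 at 21 dpi, with ADWA11 ratios of -0.92 (-1.02 to -0.83) and -0.71 (-0.80 to -0.62). Ski had 229 CPM in Ctrl, 192 in Tgfbr2-cKO and 155 with ADWA11 at 7 dpi, and 211, 177 and 160.2 at 21 dpi. Its ADWA11 ratio of -0.56 (-0.63 to -0.50) at 7 dpi lay just inside the threshold of 1.5 fold and was -0.60 after TMM scaling, and at 21 dpi it was -0.39 (-0.46 to -0.33). Smad7 had ratios of -0.36 (-0.48 to -0.24) and -0.13 (-0.25 to -0.01), Smurf2 of -0.23 (-0.28 to -0.18) and -0.37 (-0.42 to -0.32), and Tgif1 of -0.13 (-0.37 to 0.12) and 0.02 (-0.22 to 0.25). Both ADWA11 mice lay below both Ctrl mice for Pmepa1, Skil and Ski at each time, as with Skil at 62.0 and 72.6 CPM against 125 and 133 at 7 dpi. The falls at 21 dpi depended on which nuclei were counted as fibroblasts: clustering on log-normalised counts gave -0.27 for Pmepa1 and -0.36 for Skil, and a filter pooled over libraries gave -0.32 and -0.39, each within 1.5 fold, as was Skil as a mean over nuclei (-0.57) and in female nuclei (-0.56). Fibroblast markers were also raised in the unnamed clusters 8, 15 and 21, which lie outside the class. At 21 dpi Pmepa1 there was 173, 170 and 172 CPM in Ctrl and 136, 158 and 166 with ADWA11. Skil was 72.0, 96.9 and 78.2 CPM against 56.4, 82.0 and 73.5, and both genes were within 1.5 fold. At 7 dpi Pmepa1 was 262 and 584 CPM in clusters 8 and 21 of Ctrl and 152 and 161 with ADWA11. The class also sat in different sub-clusters in the 2 groups, since sub-cluster 4 held 1038 Ctrl and 21 ADWA11 nuclei at 21 dpi. Its Ctrl nuclei had Pmepa1 at 459 (444 to 474) CPM and Skil at 149 (140.4 to 157). Without this sub-cluster, a setting chosen after seeing the data, the 21 dpi ratios were -0.64 for Pmepa1 and -0.57 for Skil, the latter within 1.5 fold. Among the 4 sub-clusters measured in both groups at 21 dpi, Pmepa1 passed the threshold in 2 and Skil in 1. For both this includes sub-cluster 0, which was led by myeloid genes, and there Pmepa1 was 291 (278 to 305) CPM in Ctrl and 150.3 (137 to 164) with ADWA11, and Skil 128 (119 to 137) and 79.4 (70.1 to 89.5). In sub-cluster 5 Skil stood at 109 (94.8 to 124) CPM in Ctrl and 133 (101 to 171) with ADWA11. At 7 dpi Pmepa1 passed it in 5 of 5 sub-clusters and Skil in 4 of 5.

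In Tgfbr2-cKO fibroblasts as a class, where the receptor gene is targeted, Pmepa1 fell at both times and Skil at 21 dpi. That was 1 of 6 genes at 7 dpi, next to 5.42% of all measured genes, and 2 of 6 at 21 dpi, next to 12.9%, and none rose, next to 11.5% and 13.2%. The median ratio of the 6 was -0.22 and -0.21, with 0.08 and 0.00 over all measured genes. From the levels above, the Pmepa1 ratio was -0.60 (-0.69 to -0.51) at 7 dpi and -1.37 (-1.48 to -1.25) at 21 dpi. The value at 7 dpi sat at the threshold and came to -0.51 as a mean over nuclei, -0.31 with clustering on log-normalised counts, -0.43 with a pooled filter, -0.44 in male nuclei and -0.57 without sub-cluster 6. Skil was -0.45 (-0.66 to -0.24) at 7 dpi, and -0.65 after TMM scaling, and -1.53 (-1.74 to -1.33) at 21 dpi, where its level of 42.6 CPM was the lowest of the 6 libraries. Within the class that fall rested on sub-cluster 6, which held 312 of the 656 Tgfbr2-cKO fibroblasts of 21 dpi and 0 of Ctrl. Without it, a setting chosen after seeing the data, the 21 dpi ratios were -0.39 for Skil, within 1.5 fold, -0.70 for Pmepa1 and 0.65 for Smad7, which then passed the threshold. In the sub-clusters shared with Ctrl at 21 dpi Skil was 106 (80.6 to 136) CPM against 122 (104 to 143) in sub-cluster 3 and 93.4 (70.1 to 122) against 128 (119 to 137) in sub-cluster 0, and neither passed. Outside the class, in the unnamed cluster 8, Skil was 42.9 (36.5 to 50.2) CPM in Tgfbr2-cKO and 72.0 (64.6 to 80.0) in Ctrl. Pmepa1 in cluster 8 was 106 (95.3 to 117) and 173 (161 to 185) CPM. Both differed by more than 1.5 fold with intervals apart. Smad7 went the other way, within 1.5 fold in the class, at 0.26 (0.02 to 0.50) and 0.42 (0.24 to 0.59), and both Tgfbr2-cKO mice lay above both Ctrl mice at each time. In the shared sub-clusters at 21 dpi it was 82.7 (60.8 to 110.0) CPM against 40.8 (30.5 to 53.3) in Ctrl in sub-cluster 3, past the threshold, and 86.5 (64.2 to 114) against 60.2 (54.3 to 66.6) in sub-cluster 0, within it. Ski stood at -0.26 and -0.25, Smurf2 at -0.19 and -0.10, and Tgif1 at -0.01 and -0.17. Pmepa1 was 378 and 504 CPM in the female and male Tgfbr2-cKO mice at 7 dpi and 115 and 159.7 at 21 dpi, below the Ctrl mice of the same time, at 685 to 774 and 345 to 365. TMM scaling moved the median of all genes by -0.20 in this class at 7 dpi, where 31.9% of the genes called were lower by CPM and 56.9% after TMM scaling. Summed fibroblast markers within the fibroblast class were 8240.4 CPM in Ctrl, 4264 in Tgfbr2-cKO and 6498 with ADWA11 at 7 dpi and 7976, 2112 and 5818 at 21 dpi, and summed neuron markers were 214 and 75.4 in the Tgfbr2-cKO libraries against 2.55 to 8.45 elsewhere. The part of this make-up in the ratios was not tested.

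Within the fibroblast class, the myofibroblast-like and leptomeningeal-like nuclei gave different values in Tgfbr2-cKO lesions. Myofibroblast-like nuclei (sub-cluster 2) numbered 1012 in Ctrl, 124 in Tgfbr2-cKO and 1173 with ADWA11 at 7 dpi, and 69, 2 and 4 at 21 dpi. At 7 dpi their Pmepa1 level was 789 (771 to 807) CPM in Ctrl, 427 (385 to 473) in Tgfbr2-cKO and 352 (341 to 363) with ADWA11, and their Skil level was 134 (126 to 141), 59.1 (44.1 to 77.5) and 65.3 (60.8 to 70.1). Both genes were thus lower in either perturbed library, with intervals apart from Ctrl. Leptomeningeal-like nuclei (sub-cluster 3, 473, 122 and 405 nuclei at 7 dpi) had Pmepa1 at 711 (683 to 739) CPM in Ctrl, 666 (607 to 729.6) in Tgfbr2-cKO and 217 (203 to 232) with ADWA11. Here ADWA11 was apart from Ctrl and Tgfbr2-cKO was not, and at 21 dpi the levels were 290.0 (261 to 321), 329 (284 to 379.8) and 171 (143 to 203). Skil in these nuclei was 122 (111 to 134) CPM, 111 (87.8 to 139) and 80.5 (72.0 to 89.6) at 7 dpi. At 21 dpi 312 of the 330 nuclei of sub-cluster 6, led by Gabrg3 and Ebf3, came from Tgfbr2-cKO, with Pmepa1 at 97.2 (86.7 to 109) CPM and Skil at 17.6 (13.4 to 22.9), and this cluster held nearly 1 library only. In sub-cluster 1, which held 1083 Ctrl and 1742 ADWA11 nuclei at 21 dpi, Pmepa1 was 272 (261 to 284) CPM and 203 (196 to 210.3). Sub-cluster 0 was led by myeloid genes, had a median of 1939 UMIs, and had 31.0% of its nuclei called doublets. It held 4031 of the 13308 fibroblast nuclei, and at 21 dpi 2261 of 5067 in Ctrl, 163 of 656 in Tgfbr2-cKO and 565 of 2549 with ADWA11. Without it and the shallow sub-cluster 8, a setting chosen after seeing the data, the ADWA11 ratios were -1.25 and -0.85 for Pmepa1 and -0.94 and -0.71 for Skil at the 2 times. The Tgfbr2-cKO ratios were then -0.56 and -1.46 for Pmepa1, the former within 1.5 fold, and -1.89 for Skil at 21 dpi.

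**Figure D3:**
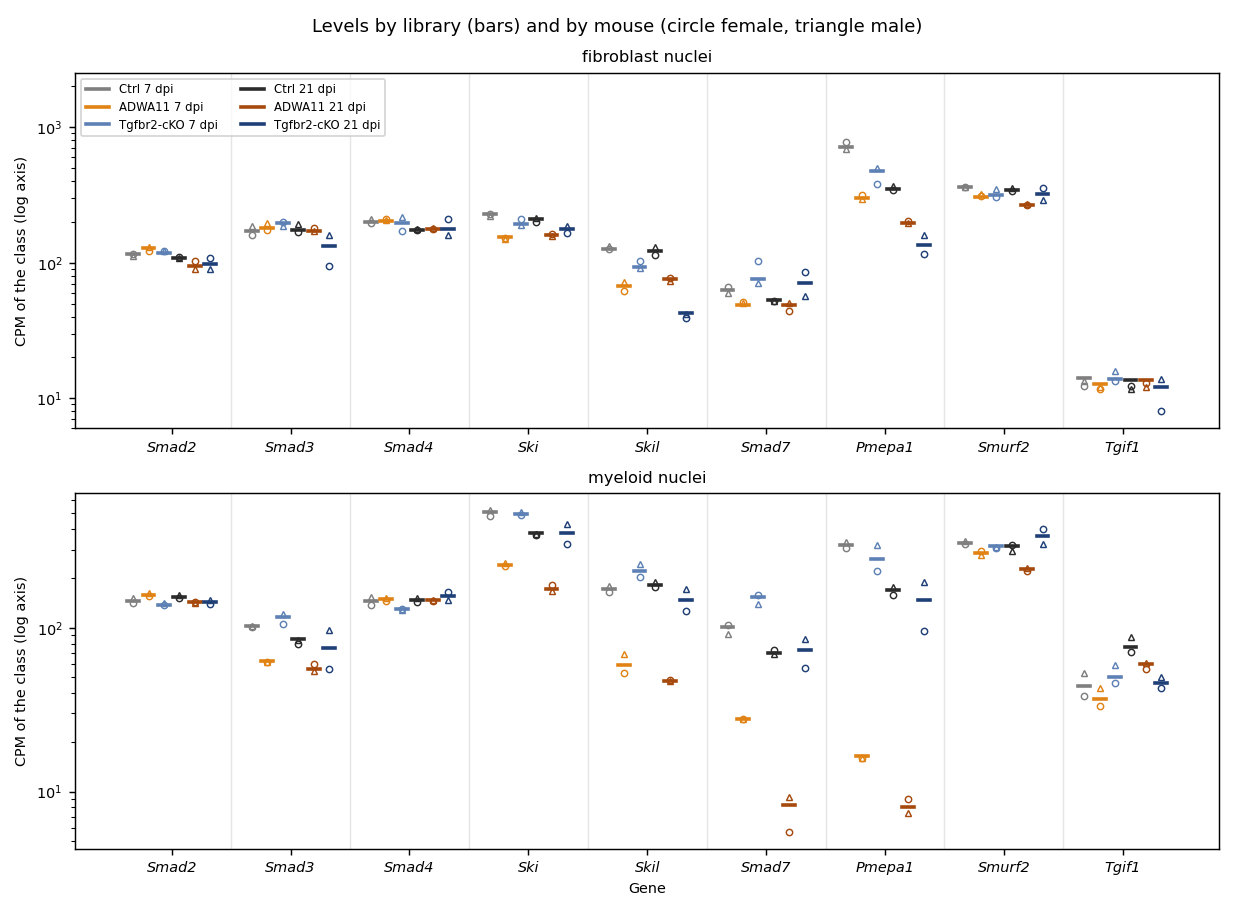
Levels of the 9 genes in CPM on a log axis in fibroblast and myeloid nuclei, with a bar for each library and a circle for its female and a triangle for its male mouse. Myeloid Pmepa1 sits at 7.40 to 16.0 CPM in the 4 ADWA11 mice and at 159 or more in the 4 Ctrl mice.

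**Figure D4:**
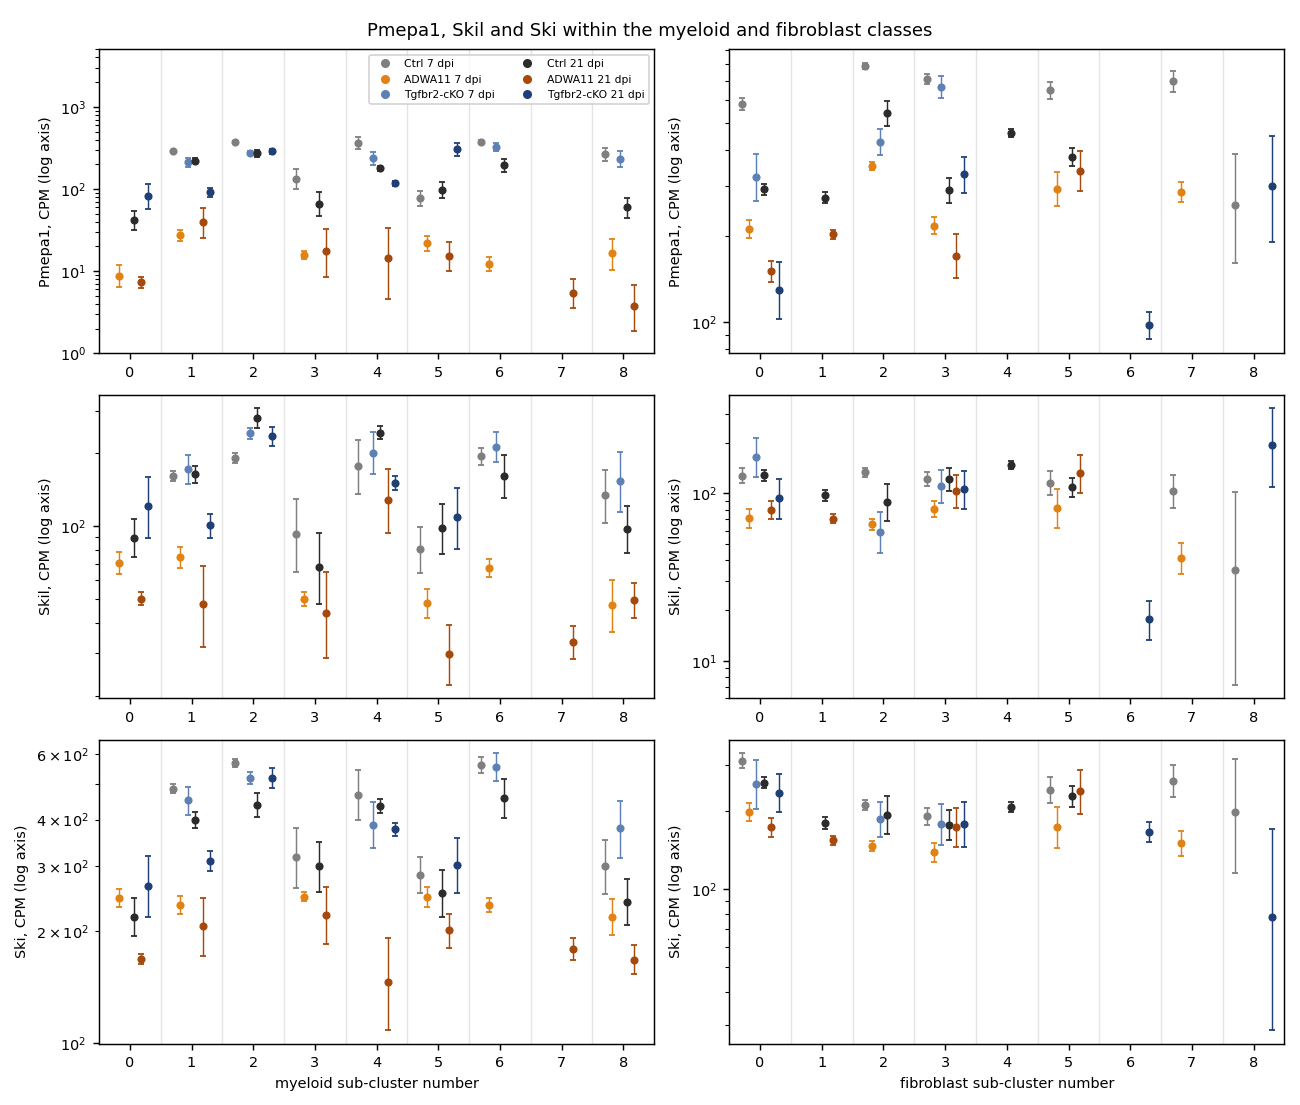
Levels of Pmepa1, Skil and Ski in CPM on a log axis in each numbered sub-cluster of the myeloid and fibroblast classes, with 1 point per library of at least 50 nuclei and its exact 95% counting interval. In myeloid sub-cluster 6 at 7 dpi Pmepa1 is 375 CPM in Ctrl and 12.3 under ADWA11, and in fibroblast sub-cluster 2 it is 789 and 352.

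In the T cell and neutrophil classes Pmepa1, Skil, Smad7 and Ski also fell under ADWA11. T cells had 4 of the 6 genes lower at each time, next to 4.57% and 8.48% of all measured genes, with medians of -0.83 and -0.87 for the 6 and 0.05 and 0.00 for all genes. T cell Pmepa1 was 140.4 CPM in Ctrl and 28.9 under ADWA11 at 7 dpi, and at 21 dpi it was 133 in Ctrl, 113 in Tgfbr2-cKO and 24.4 with ADWA11. The ADWA11 ratios were -2.28 (-2.99 to -1.61) and -2.45 (-2.85 to -2.06), and those of the other 3 were -1.32 and -1.26 for Skil, -0.90 and -0.96 for Smad7, and -0.76 and -0.79 for Ski, the 7 dpi value of Ski being -0.57 as a mean over nuclei. In Tgfbr2-cKO T cells at 21 dpi none of the 6 fell, next to 8.85%, with a median of -0.18 and Pmepa1 at -0.25 (-0.60 to 0.11), and the 28 T cells of 7 dpi were too few. Myeloid markers summed to 2905 to 4094 CPM in the T cell libraries (7 of 7 with UMIs), next to 2339.7 to 3052 in the myeloid class, and the T cell sum was the higher of both in each library but ADWA11 at 7 dpi. The list holds Ptprc (CD45), a protein by which the study also gated T cells. Of the 7 genes listed, 2 were raised in the T cell cluster. This sum thus does not measure RNA of macrophages alone, and its genes were not separated. T cell markers (8 of 8) summed to 4076 to 4706 CPM. Fibroblast markers were 775 and 612 CPM at 7 dpi and 1669 and 962 at 21 dpi in Ctrl and ADWA11. B cell markers rose with ADWA11 from 17.8 to 116 CPM at 7 dpi (3 and 6 of 7, Cd79a at 0 in both) and from 63.8 to 154 at 21 dpi (4 and 7 of 7). At 21 dpi mural markers (7 of 7) went from 77.4 to 26.5 CPM, OPC markers (6 and 7 of 8, Sox10 at 0 in both) from 76.4 to 33.2 and astrocyte markers (6 of 6) from 146 to 82.3. The part of RNA from other cells was not tested.

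In the class named neutrophil 4 of 6 genes fell at 7 dpi and 5 at 21 dpi under ADWA11, next to 7.96% and 7.03% of all measured genes. Pmepa1 had 160.2 CPM in Ctrl, 133 in Tgfbr2-cKO and 33.0 with ADWA11 at 7 dpi, and 124, 68.6 and 33.8 at 21 dpi, with ADWA11 ratios of -2.28 (-2.87 to -1.73) and -1.87 (-2.35 to -1.40). Skil, which was highest in this class, had 267 CPM in Ctrl, 266 in Tgfbr2-cKO and 113 with ADWA11 at 7 dpi, and 291, 238 and 113 at 21 dpi. Both ADWA11 libraries were near 113 CPM and the other 4 at 238 or more, with ratios of -1.23 (-1.56 to -0.91) and -1.37 (-1.64 to -1.09). Ski fell by 1.01 and 1.13 on the log2 scale and Smad7 by 1.32 and 0.61, the last being -0.55 after TMM scaling and -0.46 without the 5 nuclei richest in Smad7. Tgif1 fell at 21 dpi, at -0.67 (-1.22 to -0.09), though it was 0.073 in female nuclei. In Tgfbr2-cKO neutrophils none of the 5 measured genes fell at 7 dpi, next to 8.47%, and at 21 dpi Pmepa1 fell, at -0.85 (-1.43 to -0.29) (-0.58 without called doublets), and Smad7 rose, at 0.67 (0.07 to 1.28), next to 8.8% lower and 10.4% higher among all genes. The Smad7 value was -0.31 in female nuclei and 0.43 in male nuclei alone and 0.50 without the 5 nuclei richest in it. Neutrophil markers summed to 10666 CPM in the Tgfbr2-cKO library of 21 dpi and to 249 to 1038 in the other 5, with 5 of 6 or more detected and Retnlg at 0 in at least 1, so the nuclei under this name differed between the libraries. Myeloid nuclei of 7 dpi held neutrophil markers of 385 CPM in Ctrl and 419 in Tgfbr2-cKO, next to 485, 297 and 249 in the Ctrl, Tgfbr2-cKO and ADWA11 nuclei of this name. At 7 dpi the summed markers thus did not set the class well apart from myeloid nuclei, and its name is uncertain there. At 21 dpi its myeloid markers summed to 2983 CPM in Ctrl and 4049 with ADWA11, next to 2734 and 2996 in myeloid nuclei. Its neutrophil markers then summed to 824 and 1038 CPM, next to 269 and 215 in myeloid nuclei. These sums do not settle its name in those libraries. Over all libraries 5 of the 6 neutrophil markers were raised in this cluster and at most 1 in each myeloid cluster. The genes behind the myeloid sums were not separated. For neutrophils 59.7% of the genes called were lower by CPM and 74.7% after TMM scaling at 7 dpi in Tgfbr2-cKO, and 55.9% of the genes called were lower by CPM and 45.6% after TMM scaling at 21 dpi under ADWA11.

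In the class named astrocyte feedback genes were lower in both kinds of perturbed lesion, but its nuclei were not alike across the libraries. At 7 dpi the Ctrl and ADWA11 nuclei of this name held more OPC than astrocyte marker RNA and the Tgfbr2-cKO nuclei the reverse, so the Tgfbr2-cKO values of 7 dpi set unlike nuclei side by side. Of the genes measured, 3 of 5 fell at 7 dpi and 2 of 6 at 21 dpi under ADWA11, next to 7.41% and 4.67% of all genes, and 4 of 6 and 3 of 6 fell in Tgfbr2-cKO, next to 13.1% and 10.8%. The medians were -0.75 and -0.36 under ADWA11 and -0.77 and -0.70 in Tgfbr2-cKO. Pmepa1 had 110.1 CPM in Ctrl, 63.0 in Tgfbr2-cKO and 29.2 with ADWA11 at 7 dpi, and 79.3, 28.2 and 22.4 at 21 dpi. Its ratios were -1.92 (-2.35 to -1.50) and -1.82 (-2.22 to -1.44) under ADWA11 and -0.81 (-1.15 to -0.46) and -1.49 (-1.72 to -1.26) in Tgfbr2-cKO, and Ctrl was the highest library at each time. The 7 dpi value in Tgfbr2-cKO differed between the mice, with 37.5 CPM in the female and 104 in the male against 93.0 and 59.8 in Ctrl, a ratio of 0.80 in male nuclei alone, and the value was -0.58 as a mean over nuclei and -0.45 without called doublets. Skil fell in all 4 comparisons, at -1.15, -1.03, -0.85 and -1.22, with levels of 60.2 and 53.1 CPM in Ctrl and 22.9 to 33.5 in the other 4. Smad7 had 118 CPM in Ctrl, 58.6 in Tgfbr2-cKO and 70.1 with ADWA11 at 7 dpi, and 78.6, 36.3 and 53.8 at 21 dpi, and it fell in 3 of the 4 comparisons, at -0.75, -1.01 and -1.12, with -0.55 under ADWA11 at 21 dpi (-0.61 after TMM scaling), and its 7 dpi ADWA11 value was -0.15 in female nuclei. Ski fell in Tgfbr2-cKO at 7 dpi, at -0.73 (-0.91 to -0.55), and was 0.05 (-0.04 to 0.14) at 21 dpi. The astrocyte class was not of one make-up: astrocyte markers (6 of 6) summed to 2923 CPM in Ctrl, 9998 in Tgfbr2-cKO and 2726 with ADWA11 at 7 dpi and 4536, 9171 and 3750.3 at 21 dpi. OPC markers (8 of 8) summed in the same nuclei and order to 6126, 982 and 4759.8 CPM and 2102, 811 and 1832, and fibroblast markers (7 of 7) to 752, 73.6 and 522 and 1237, 89.3 and 921. Both were lowest in the Tgfbr2-cKO libraries, and their part in the ratios was not tested. The genes behind the OPC sums were not separated. Under ADWA11 at 21 dpi, 42.3% of the genes called were lower by CPM and 52.7% after TMM scaling.

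In the oligodendrocyte lineage single feedback genes fell in each comparison, and the 39 OPCs and 23 oligodendrocytes of ADWA11 at 21 dpi were too few to compare. In OPCs 3 of 6 fell under ADWA11 at 7 dpi, next to 10.8% of all genes, and in Tgfbr2-cKO 2 of 6 fell at 7 dpi, next to 12%, and 1 of 5 at 21 dpi, next to 11.3%. OPC Pmepa1 was 214 CPM in Ctrl, 188 in Tgfbr2-cKO and 126 with ADWA11 at 7 dpi, and at 21 dpi it was 116 in Ctrl and 64.0 in Tgfbr2-cKO. Its ratio was -0.77 (-0.90 to -0.64) under ADWA11, and in Tgfbr2-cKO it was -0.19 (-0.35 to -0.02) and -0.86 (-1.27 to -0.46). Smad7 fell at 7 dpi with ADWA11, at -1.13 (-1.36 to -0.90), and in Tgfbr2-cKO, at -0.80 (-1.13 to -0.48), the latter -0.24 with a pooled filter. Ski fell in the same comparisons, at -0.80 and -0.59, but came to -0.44 and -0.32 without called doublets. Fibroblast markers in OPC nuclei (7 of 7) summed to 1035 CPM in Ctrl, 507 in Tgfbr2-cKO and 613 with ADWA11 at 7 dpi, and to 1165 in Ctrl and 586 in Tgfbr2-cKO at 21 dpi. At 7 dpi neuron markers in these nuclei summed to 58.5 CPM in Ctrl, 348 in Tgfbr2-cKO and 63.4 with ADWA11 (6, 7 and 6 of 7), and neutrophil markers to 122, 20.9 and 16.3 (5, 3 and 6 of 6). In Ctrl and Tgfbr2-cKO at 21 dpi neutrophil markers summed to 20.7 and 1479 CPM (5 and 6 of 6), and neuron markers to 74.1 and 207 (5 and 6 of 7, Slc17a6 at 0 in both). The part of these lists in the OPC ratios was not tested.

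In oligodendrocytes 1 of 4 measured genes fell under ADWA11 at 7 dpi and 2 of 5 fell in Tgfbr2-cKO at each time, next to 7.8%, 9.58% and 11.6% of all genes. Smad7, whose highest class this was, stood at 504 CPM in Ctrl, 347 in Tgfbr2-cKO and 371 with ADWA11 at 7 dpi, and at 21 dpi it was 275 in Ctrl and 283 in Tgfbr2-cKO, with each ratio within 1.5 fold. Pmepa1 fell in all 3 comparisons, at -1.69 (-2.43 to -0.97), -1.35 (-1.83 to -0.84) and -0.82 (-1.31 to -0.31), the last being -0.03 without called doublets. Smurf2 fell in Tgfbr2-cKO at 7 dpi, at -0.74 (-1.08 to -0.38), and Skil at 21 dpi, at -0.78 (-1.40 to -0.12), though they came to -0.25 and -0.15 without the 5 nuclei richest in each. The Ctrl and ADWA11 libraries of 7 dpi held 53 and 71 of these nuclei, and 53.6% of the genes called were lower by CPM and 40.6% after TMM scaling, while in Tgfbr2-cKO at 21 dpi 55.5% of the genes called were lower by CPM and 37.0% after TMM scaling and the median of all genes moved by 0.13. Neurons could be compared for Tgfbr2-cKO only, where 1 of 5 genes fell at 7 dpi and 2 of 5 at 21 dpi, next to 13.1% and 14.5%. Neuronal Smad7 was 36.7 CPM in Ctrl against 21.9 in Tgfbr2-cKO at 7 dpi, while at 21 dpi it was 30.9 against 18.3, with ratios of -0.74 (-1.22 to -0.23) and -0.76 (-1.37 to -0.08) that came to -0.16 and -0.35 without the 5 richest nuclei. Neuronal Pmepa1 fell at 21 dpi, at -0.75 (-1.19 to -0.27), and was -0.47 after TMM scaling and 0.11 with a pooled filter. TMM scaling moved the median of all neuronal genes by 0.16 and 0.26, so that 62.3% of the genes called were lower by CPM and 39.8% after TMM scaling at 7 dpi and 65.0% of the genes called were lower by CPM and 34.6% after TMM scaling at 21 dpi.

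No feedback gene fell in endothelial nuclei in the comparisons made, and Pmepa1, Skil and Ski fell in mural nuclei in some of them. The 37 endothelial and 39 mural nuclei of Tgfbr2-cKO at 7 dpi were too few to compare. In endothelial nuclei none of 6 genes fell under ADWA11 at 7 or 21 dpi or in Tgfbr2-cKO at 21 dpi, next to 4.49%, 7.03% and 11.0% of all genes, with medians of -0.24, -0.08 and 0.13. Endothelial Pmepa1 was 172 CPM in Ctrl and 138 with ADWA11 at 7 dpi, and at 21 dpi it was 141 in Ctrl, 145 in Tgfbr2-cKO and 94.7 with ADWA11. The ratios were -0.32 (-0.57 to -0.06), -0.57 (-0.82 to -0.32) and 0.04 (-0.30 to 0.37), of which the ADWA11 value at 21 dpi came nearest to the threshold. In mural nuclei (pericytes and smooth muscle) 3 of 6 genes fell under ADWA11 at 7 dpi, none of 5 at 21 dpi and 2 of 5 in Tgfbr2-cKO at 21 dpi, next to 5.65%, 6.78% and 11.9% of all genes. Mural Pmepa1 went from 201 to 65.1 CPM under ADWA11 at 7 dpi, a ratio of -1.62 (-2.20 to -1.09), but from 121 to 181 at 21 dpi, a ratio of 0.58 (0.12 to 1.04). In Tgfbr2-cKO at 21 dpi it was 62.7 CPM, at -0.95 (-1.73 to -0.23). Skil fell in the same mural comparisons, at -1.57 (-2.82 to -0.48) and -1.06 (-2.15 to -0.10), and Ski under ADWA11 at 7 dpi, at -0.78 (-1.15 to -0.42). These values rest on 66 to 153 nuclei per library. Under ADWA11 at 7 dpi 33.0% of the genes called were lower by CPM and 46.7% after TMM scaling in endothelial nuclei, and 47.8% of the genes called were lower by CPM and 61.9% after TMM scaling in mural nuclei.

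Smad2, Smad3 and Smad4, which carry the signal, stayed within 1.5 fold of Ctrl in most classes. In fibroblasts none of Smad2, Smad3 and Smad4 passed the threshold in the 4 comparisons. By the shares given above most fibroblast genes did not pass it either, so this count does not set the Smads apart. Their medians at 7 and 21 dpi were 0.08 and -0.02 for ADWA11 and 0.03 and -0.16 for Tgfbr2-cKO. Smad4, the shared partner, stood between 174 and 204 CPM in the 6 fibroblast libraries and between 131 and 157 in myeloid nuclei. Smad2 stood between 95.4 and 127 CPM in fibroblasts and between 137 and 159 in myeloid nuclei. Fibroblast Smad3 had 172 CPM in Ctrl, 197 in Tgfbr2-cKO and 181 with ADWA11 at 7 dpi, and 174, 132 and 172 at 21 dpi, with a Tgfbr2-cKO ratio of -0.40 (-0.52 to -0.28) at the later time. The exception was myeloid Smad3, which had 103 CPM in Ctrl, 116 in Tgfbr2-cKO and 62.4 with ADWA11 at 7 dpi, and 85.9, 75.5 and 56.2 at 21 dpi. It fell under ADWA11 at both times, at -0.72 (-0.80 to -0.65) and -0.61 (-0.72 to -0.51), and the latter was -0.50 after TMM scaling. Smad3 was 141 (133 to 148) CPM in microglia-like and 78.2 (73.8 to 82.9) in other myeloid nuclei of Ctrl at 7 dpi, and without the microglia-like sub-clusters the ratios were -0.33 and -0.17, within 1.5 fold. Those sub-clusters were named by genes such as Sall1 and Tmem119 and held 1598 Ctrl and 71 ADWA11 nuclei at 7 dpi. The study reports a dysmature myeloid signature with ADWA11, so leaving them out may not remove the same cells from both groups. This was not tested. Beyond these classes Smad3 fell in mural nuclei under ADWA11 at 7 dpi, at -0.93 (-1.55 to -0.34), and in Tgfbr2-cKO at 21 dpi, at -1.11 (-2.10 to -0.23), and Smad2 rose in Tgfbr2-cKO neutrophils at 7 dpi, at 0.70 (0.05 to 1.30). The first of these was -0.38 as a mean over nuclei and the last was 0.47 without the 5 nuclei richest in Smad2. Smad4 did not pass the threshold in any class or comparison. In each fibroblast and myeloid comparison most genes likewise did not pass it, by the shares given above.

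In Ctrl lesions Pmepa1 fell between 7 and 21 dpi in both main classes. It went from 716 to 351 CPM in fibroblasts, at -1.03 (-1.07 to -0.99), and from 319.6 to 171 in myeloid nuclei, at -0.90 (-0.97 to -0.84). Fibroblast sub-cluster 2 went from 1012 to 69 nuclei, and myeloid sub-cluster 2 from 1527 to 290. Pmepa1 passed the threshold within fibroblast sub-clusters 0, 3 and 5 and myeloid sub-clusters 3, 4, 6 and 8. It stayed within 1.5 fold in fibroblast sub-cluster 2 (789 to 540 CPM) and myeloid sub-clusters 1 (291 to 221) and 2 (372 to 271). In myeloid sub-cluster 5 it was 77.4 and then 98.0 CPM. Pmepa1 was the only one of the 9 genes that fell in fibroblasts as a class, next to 9.56% of all genes, and none rose, next to 19.4%. In myeloid nuclei Pmepa1 alone fell, next to 7.23%, and Tgif1 alone rose, next to 17.2%, from 44.2 to 75.9 CPM at 0.78 (0.66 to 0.90). Smad7 was -0.52 (-0.63 to -0.41) in myeloid nuclei and -0.63 after TMM scaling, which moved the median of all genes by -0.11, and 29.6% of the genes called were lower by CPM and 41.3% after TMM scaling. Skil had ratios over time of -0.05 in fibroblasts and 0.10 in myeloid nuclei.

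The other genes of the pathway were counted from lists, with those past the threshold in fibroblasts named up to 3 per list and direction, each with its log2 ratio. Among 15 target genes of TGFβ, 8 fell and 3 rose under ADWA11 at 7 dpi, and 6 fell and 1 rose at 21 dpi, next to 6.16% and 7.73% of all genes lower and 12.2% and 9.09% higher. In Tgfbr2-cKO 7 fell and 4 rose at 7 dpi, while 8 fell and 3 rose at 21 dpi, next to 5.42% and 12.9% lower and 11.5% and 13.2% higher. Falls under ADWA11 included Ltbp2 (-1.62), Ccn2 (-1.50) and Tnc (-1.16) at 7 dpi, and Tnc (-1.34) and Ccn2 (-1.29) at 21 dpi, which encode a latent TGFβ-binding protein, a matricellular growth factor and tenascin C. In Tgfbr2-cKO the largest falls were Tnc (-1.85), the NADPH oxidase gene Nox4 (-1.82) and the collagen gene Col1a1 (-1.39) at 7 dpi, and Tnc (-4.28), Col1a1 (-2.77) and Nox4 (-2.35) at 21 dpi. Col1a1 also served as a marker of the class, so its change is not independent of how nuclei were named. Against the direction of the list, the chromatin protein gene Hmga2 rose by 2.19, 2.67 and 2.70 with ADWA11 at 7 dpi and, for Tgfbr2-cKO, at 7 and then 21 dpi, Snai1, a repressor of epithelial genes, rose in the same 3 by 0.83, 1.74 and 0.95, and the AP-1 gene Junb rose by 0.59 and 0.77 with ADWA11 and 0.74 in Tgfbr2-cKO at 21 dpi. The Junb value of 0.59 sat at the threshold by CPM, and the TMM factors of 7 dpi (0.938 in Ctrl and 0.963 with ADWA11) would lower it. The cell-cycle inhibitor gene Cdkn1a rose by 1.09 in Tgfbr2-cKO at 7 dpi. At 7 and 21 dpi the median of the list was -0.80 and -0.42 for ADWA11 and -0.50 and -0.69 for Tgfbr2-cKO.

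Of 13 other negative regulators, 2 fell under ADWA11 at each time, next to 6.16% and 7.73% of all genes, and for Tgfbr2-cKO 2 of 12 fell at 7 dpi, next to 5.42%, while 3 fell and 1 rose at 21 dpi, next to 12.9% and 13.2%. Ldlrad4, a relative of Pmepa1 that also binds SMAD2 and SMAD3, fell in all 4, at -0.93 and -1.18 under ADWA11 and -0.88 and -1.63 in Tgfbr2-cKO. The ubiquitin ligase gene Wwp2 did so too, at -0.64, -0.59, -0.91 and -1.19, while at 21 dpi in Tgfbr2-cKO its relative Wwp1 fell (-0.62) and the inhibitory Smad gene Smad6 rose (0.92). The shares of all fibroblast genes that rose were 12.2% and 9.09% with ADWA11 and 11.5% and 13.2% in Tgfbr2-cKO, beside which the rises below stand. Among 10 receptors and adaptors the co-receptor gene Tgfbr3 rose in all 4, at 1.16, 0.88, 1.28 and 1.79. The type 1 receptor gene Tgfbr1 fell at 21 dpi with ADWA11 (-1.15) and in Tgfbr2-cKO (-0.73), where the endocytic adaptor gene Dab2 fell as well (-0.73), and no other receptor or adaptor passed. Of the 6 BMP Smads and targets none fell: the BMP target genes Id1 (1.10) and Id3 (0.94) rose at 7 dpi with ADWA11, as did Id3 (1.01) and Id2 (0.60) in Tgfbr2-cKO, and at 21 dpi Smad9 rose in both (0.65 and 0.94). These ratios are by CPM. Id2 sat at the threshold, and the fibroblast TMM factors of 7 dpi (0.938 in Ctrl and 1.083 in Tgfbr2-cKO) would lower its ratio. Of 6 co-factors the transcription factor gene Runx1 fell at 7 dpi with ADWA11 (-0.71) and in Tgfbr2-cKO (-0.92), and Zeb2 rose in Tgfbr2-cKO at 21 dpi (0.66). In myeloid nuclei, where 9.98% and 16.1% of all genes were lower with ADWA11 and 6.42% and 9.76% in Tgfbr2-cKO, 9 of 14 measured targets fell under ADWA11 at each time. None rose, next to 12.5% and 8.33% of all genes, and the medians were -1.04 and -0.93. In Tgfbr2-cKO 7 fell and 2 rose, then 8 fell and 1 rose, next to 15.6% and 9.33% of all genes higher, with medians of -0.86 and -0.68. That list holds collagen and matrix genes of fibroblasts, whose markers in myeloid nuclei moved as given above, and their part was not tested. Of 10 receptors and adaptors in myeloid nuclei, 1 and 2 fell with ADWA11 at 7 and 21 dpi, and 1 and 0 fell in Tgfbr2-cKO, and none rose. Of 13 other negative regulators 2 and 4 fell with ADWA11 and 1 and 1 in Tgfbr2-cKO, and 1 rose at 7 dpi in either comparison. The shares of receptors lower lay near those of all genes. BMP genes fell in 0 of 5 and 2 of 5 cases under ADWA11 and in 0 of 3 and 2 of 5 in Tgfbr2-cKO, where 1 rose at 7 dpi, and no co-factor passed in either direction.

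The genes most like each member were found by Pearson correlation of log2(CPM + 1) over 53 units, each 1 class in 1 library with at least 50 nuclei, among 10787 genes with a mean of at least 10 CPM. The units share libraries and depth, so these values are a description. Pmepa1 was near to Ldlrad4 (0.65) and Zfp451 (0.64), and its nearest value was the weakest of the 9 members. Ski was nearest to Mgat5 (0.83), Bcar3 (0.74) and Nek6 (0.73), and Skil to G3bp2 (0.79), Golm1 (0.78) and Pitpna (0.78). Smad7 was nearest to Micall1 (0.80), Tmem63a (0.79) and Ywhaq (0.73), and Smad3 to Copb2 (0.79), Dcaf5 (0.76) and Sec61a1 (0.75). The values were higher for the remaining members, with Smad2 nearest to March7 (0.92), Smad4 to Sec63 (0.91), Tgif1 to Gdi2 (0.92) and Smurf2 to Nras (0.87).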

How the data were processed

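Nuclei of dissected lesions, sorted on DAPI, were run on the 10x Chromium 3′ v3.1 kit, 1 library for each of the 6 groups. The authors deposited UMI counts per gene and barcode, which the file headers credit to Cell Ranger 7.2.0 (7.1.0 in the submitters' processing notes) with the mm10 genome. The counts were used as deposited. Barcodes outside the 2.5 and 97.5 percentiles of UMIs or genes, or above the 97.5 percentile of mitochondrial share, were left out. The percentiles follow the study's methods, and taking them within each library was a choice made here.

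Counts were clustered with Seurat 5.3.0 and sctransform 0.4.2 in R 4.3.3 on 3000 variable genes, without the 9 genes and the pathway lists, with 30 principal components at resolution 0.5, and the fibroblast and myeloid classes again at 0.2 and 0.25. Doublets were scored in each library against simulated doublets, and clusters in which over 50% of nuclei were called doublets were to be left out. Mice were told apart by sex-linked genes: nuclei with Xist and no Y-linked UMIs were called female, and the reverse male. Each CPM is the sum of a gene's UMIs in a class of a library over the total of non-mitochondrial UMIs. A gene counted as measured with at least 10 expected UMIs in the smaller library. Intervals were exact Poisson for levels and exact conditional binomial for ratios (scipy 1.17.1). TMM factors came from edgeR 4.0.16. The members and lists were chosen with earlier results of these data known. Pathway genes were named in fibroblasts, at most 3 per list and direction, largest change first, and some genes that this rule or the correlation names are not reported here. Other alternatives were the mean over nuclei, clustering on log-normalised counts, a filter pooled over libraries, each mouse alone, and leaving out called doublets or the 5 nuclei with most UMIs of a gene.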

Additional observations from a re-analysis of the deposited data

Results flagged for a closer look

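Some genes moved one way at 7 dpi and the other way at 21 dpi under the same contrast, and in no case was the difference tested, since each group was 1 library. In Tgfbr2-cKO fibroblasts Smad3 had log2 ratios of 0.20 at 7 dpi and -0.40 at 21 dpi, a difference of -0.60. In Tgfbr2-cKO myeloid nuclei Tgif1 went from 0.17 to -0.71, a difference of -0.88, and the repressor gene Skil from 0.38 to -0.30, a difference of -0.68. In the same nuclei Smad3 went from 0.18 to -0.19 (-0.36), Smad4 from -0.17 to 0.09 (0.26) and Smurf2 from -0.07 to 0.21 (0.28), all within 1.5 fold of Ctrl. Under ADWA11 Smad2 went from 0.13 to -0.20 in fibroblasts (-0.33) and from 0.13 to -0.10 in myeloid nuclei (-0.23). The widest such gap was that of Pmepa1 in mural nuclei under ADWA11, at -1.62 and 0.58, a difference of 2.20 between classes of 73 and 89 nuclei.

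Other values differed in sign between the female and the male mouse of a pool, again untested. In Tgfbr2-cKO myeloid nuclei at 21 dpi Ski was -0.18 in female and 0.21 in male nuclei (male minus female 0.39), and Smad7 was -0.35 and 0.32 (0.67). In Tgfbr2-cKO lesions at 7 dpi Pmepa1 was -1.31 in female and 0.80 in male astrocytes (2.12), and -0.57 and 0.41 in OPCs (0.98). In endothelial nuclei under ADWA11 at 7 dpi Smad3 was -0.66 and 0.68 (1.34).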

How the results depend on the processing

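Each group was 1 library of a pooled pair of mice, so the intervals cover counting error, and the values of single mice are confounded with sex and give no replicate error. No paired analysis was made, since both mice of a group came from 1 library. Classes were rebuilt from markers, and their make-up differed between libraries. RNA from other cells was present in every class, and its part was not tested.

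The cause of the moves below was not tested. The median of the 6 feedback genes in fibroblasts was -0.070 with a pooled filter and -0.062 without sub-cluster 6, a setting chosen after seeing the data, in Tgfbr2-cKO at 21 dpi, and under ADWA11 at 21 dpi it was -0.17 with clustering on log-normalised counts, -0.20 with a pooled filter, -0.31 in female nuclei and -0.28 with the unnamed clusters 8 and 15 added, also chosen then. In myeloid nuclei of Tgfbr2-cKO it was -0.048 with TMM factors at 7 dpi, and at 21 dpi -0.42 in female and 0.12 in male nuclei. Under ADWA11 it was -1.23 in male nuclei at 7 dpi, and at 21 dpi -1.43 with TMM factors, -1.46 as a mean over nuclei and -1.45 in female nuclei. Without the microglia-like sub-clusters, also chosen after seeing the data, it was -1.20 and -1.21 under ADWA11 at 7 and 21 dpi and -0.25 in Tgfbr2-cKO at 21 dpi. The genes that name these sub-clusters may themselves move with ADWA11, which was not tested.

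Past the threshold were 86 of 373 values of single genes as reported and 57 of 227 in male nuclei alone, and of the 86, 55 could be computed in male nuclei, where 34 stayed within the reported interval, 20 moved and 1 turned. In female nuclei 67 could be computed, of which 37 stayed within it, 28 moved and 2 turned. TMM factors left 79 of 86 within their interval and turned none, and leaving out called doublets left 74 of 80. The mean over nuclei left 64 of 86, and the pooled filter left 65 of 81 with 1 turned. Clustering on log-normalised counts left 76 of 86, and leaving out the 5 richest nuclei left 72 of 84. Among settings chosen after seeing the data, leaving out the microglia-like sub-clusters left 2 of 14. Adding clusters 8 and 15 to the fibroblasts left 2 of 8. Leaving out fibroblast sub-cluster 4 left 4 of 8, sub-cluster 6 left 6 of 8, and sub-clusters 0 and 8 left 7 of 8. Values that turned direction were Smad7 in Tgfbr2-cKO neutrophils at 21 dpi (-0.31, female nuclei), Pmepa1 in Tgfbr2-cKO astrocytes at 7 dpi (0.80, male nuclei), Pmepa1 in Tgfbr2-cKO neurons at 21 dpi (0.11, pooled filter) and Tgif1 in neutrophils under ADWA11 at 21 dpi (0.073, female nuclei). In Tgfbr2-cKO fibroblasts at 7 dpi the share of all genes lower was 5.42% as reported, 9.92% with TMM factors and 2.96% with no filter on low counts, and the share higher was 11.5%, 7.50% with TMM factors and 6.60% with at least 50 expected UMIs. At 21 dpi the share lower was 8.17% with no filter, and in Tgfbr2-cKO myeloid nuclei at 7 dpi the share higher was 9.64% with at least 50 expected UMIs.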
